A study of Homo sapiens with 3 samples.

Results

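The BCL2 family of apoptosis regulators was described here through 10 genes: the anti-apoptotic BCL2, BCL2L1 and MCL1, the effectors BAX and BAK1, and the BH3-only genes BID, BAD, BCL2L11, BBC3 and PMAIP1. They were chosen by name, as the array features whose annotated symbol is one of these genes. All 10 had a named feature, 1 each, out of 14884 genes with 16098 named features. RNA came from 3 cultures of untreated BTSH cells, described as biological replicates and measured on HuGene 2.0 ST arrays. BTSH is 1 clone picked from the HER2+ breast cancer line BT474 for its increased response to trastuzumab, an antibody against HER2, and had received no drug. The 3 arrays form 1 group, so no difference between cell lines or treatments could be tested, and the arrays of BT474 and of trastuzumab-resistant cells were not analysed here.

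BCL2 proteins decide whether the outer mitochondrial membrane stays intact. BAX and BAK1 form pores in it that release cytochrome c, which starts the caspase cascade. BCL2, BCL-XL (encoded by BCL2L1) and MCL1 hold BAX and BAK1 in check, and the BH3-only proteins relay death signals by binding the anti-apoptotic proteins or by activating the effectors directly. The family is known in HER2+ breast cancer because signalling from HER2 through AKT and ERK keeps BAD phosphorylated and BIM (encoded by BCL2L11) low, and cell death was one of the traits followed in BTSH cells. The transcript is only one level at which these proteins are controlled, since MCL1 and BIM are rapidly degraded and BID and BAD are switched on by cleavage and dephosphorylation.

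The upstream regions of 3 members are printed, those of BAX, which varied most among the members above background, and of BBC3 and PMAIP1, which passed background in only 1 array each. Each of these genes has a single region in the table. Each run holds the 250 bases before the annotated start, 5′ to 3′ on the strand of the gene, from RefSeq on GRCh38.p14 (BAX chr19:48954625-48954874, plus strand; BBC3 chr19:47232668-47232917, minus strand; PMAIP1 chr18:59899746-59899995, plus strand). Capitals mark CACGTG, the canonical E-box bound by factors such as MYC and USF, and GGGCGG, the GC box bound by SP1, on either strand, so that CCGCCC in capitals is a GC box on the opposite strand.
BAX: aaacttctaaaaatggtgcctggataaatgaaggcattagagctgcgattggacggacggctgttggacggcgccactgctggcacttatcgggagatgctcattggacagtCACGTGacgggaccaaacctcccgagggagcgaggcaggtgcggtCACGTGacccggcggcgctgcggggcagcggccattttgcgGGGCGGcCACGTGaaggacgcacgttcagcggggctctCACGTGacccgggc
BBC3: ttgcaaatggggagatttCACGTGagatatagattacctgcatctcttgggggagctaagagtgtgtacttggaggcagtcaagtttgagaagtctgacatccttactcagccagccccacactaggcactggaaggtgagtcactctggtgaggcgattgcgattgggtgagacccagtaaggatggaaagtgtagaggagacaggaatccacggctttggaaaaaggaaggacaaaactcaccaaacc
PMAIP1: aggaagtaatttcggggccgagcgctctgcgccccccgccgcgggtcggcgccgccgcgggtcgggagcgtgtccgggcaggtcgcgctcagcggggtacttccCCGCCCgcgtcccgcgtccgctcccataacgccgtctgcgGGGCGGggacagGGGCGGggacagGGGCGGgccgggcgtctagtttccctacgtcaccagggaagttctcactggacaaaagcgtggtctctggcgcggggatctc

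The members were searched on both strands for 8 motifs, and the E-box and GC box were picked for display after all the matches had been seen. The share of regions with 4 E-boxes given below is therefore a description of a match that was selected. The other motifs were ACGTG, the core of the hypoxia response element, which lies within each E-box, TGACGTCA, the CRE bound by CREB, the TATA box TATAAA, the CCAAT box, the forkhead motif GTAAACA and the p53 half-site. The BAX region held 4 E-boxes, whose first bases lie 138, 93, 45 and 14 bases before the start, and 1 GC box. Of 35116 upstream regions of the same length in the table, 6.34% held at least 1 E-box and 5 (0.0142%) at least 4. BBC3 had 1 E-box, 232 bases before the start, and no GC box. PMAIP1 had no E-box and 4 GC boxes, a number reached by 7.63% of all regions.

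Of the 10 members 9 have an entry in the table, all except MCL1, with 15 regions in all, since some genes have several starts, and some of these regions overlap. An E-box was found in 4 of the 15 regions (those of BAX and BBC3 and 2 of BID) and a GC box in 10, against 6.34% and 42.6% of all regions. Overlapping regions share sites, so counts by region can hold the same match more than once. The E-box of the 2 BID regions is the same site, as is the GC box of the 2 BAD regions. By gene, 3 of the 9 members had an E-box and 6 a GC box, and no share by gene was computed over the whole table. ACGTG was found in 4 regions, of the same 3 genes as the E-box, against 18.5% of all regions. CCAAT was found in 6 of the 15 (32.0% of all regions) and TATAAA in 1, of BCL2L1 (10.7%). The forkhead motif was found in 1 region, of BCL2L11 (2.98% of all regions), the p53 half-site in 1, of BAK1 (5.57%), and the CRE in 0 (1.65%). These matches are letters in a window, and the arrays did not measure binding.

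In BTSH cells 7 of the 10 members were above background in all 3 arrays, namely BCL2L1, MCL1, BAX, BAK1, BID, BAD and BCL2L11, while BBC3 and PMAIP1 were above it in 1 array each and BCL2 in none. Background was the 95th percentile, in each array, of 106 features of genes that belong to hair, skin and olfaction (the KRTAP, LCE and VN1R families). It was 6.70 in replicate 1, 7.08 in replicate 2 and 6.83 in replicate 3 (log2). Of all named genes 30.4% passed it in all 3 arrays, and of the named protein-coding genes 36.5%. Among the anti-apoptotic members 2 of 3 passed, and among the pro-apoptotic members 5 of 7, both effectors included. With the 99th percentile as background, BAK1, BAD and BCL2L11 dropped out and 4 members passed, against 22.0% of all named genes. Signals are log2 values normalized by RMA. Since they also depend on the probes, the signal of each gene was compared with itself across arrays and not ranked against other genes. The background calls do set a gene against features of other genes, so they carry such probe effects. SDs were also ranked among genes. A signal is an average over all cells of a culture, so fewer expressing cells and less RNA per cell cannot be told apart.

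**Figure D1:**
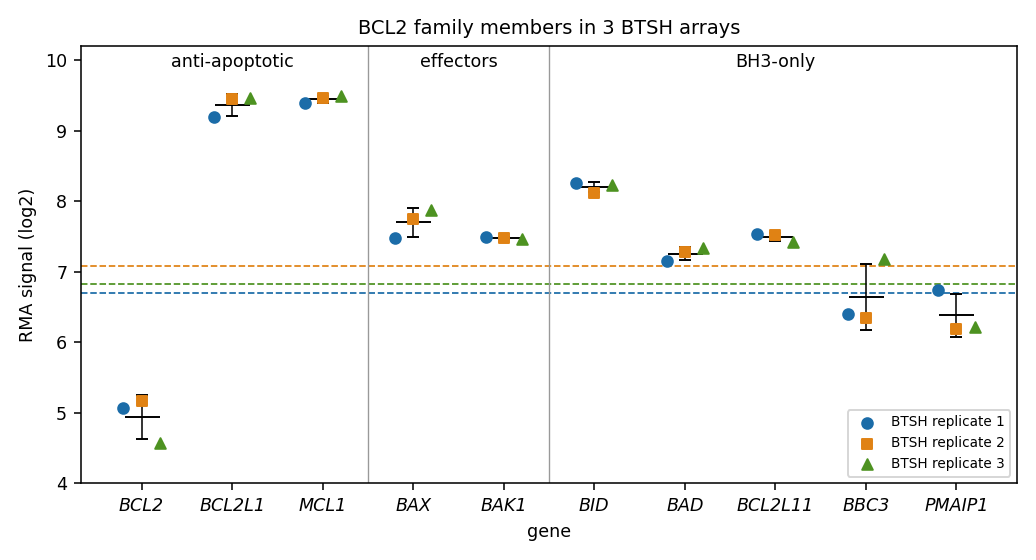
RMA signal (log2) of the 10 BCL2 family members in each of the 3 BTSH arrays (circles, squares and triangles for replicates 1, 2 and 3), with the mean and SD in black and the background of each array as a dashed line of the same colour. BCL2L1 (9.37 on average) and MCL1 (9.45) sit well above every background line, whereas BCL2 sits below all of them.

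Of the anti-apoptotic members, BCL2L1, which encodes BCL-XL, had signals of 9.19, 9.45 and 9.46 in replicates 1, 2 and 3 (9.37 ± 0.15, SD, n = 3). It was lower in replicate 1 than in the other two arrays, which lay close together, and the highest and lowest arrays were 1.21-fold apart. MCL1, a short-lived protein that guards against BAK1, had signals of 9.39, 9.47 and 9.48 (9.45 ± 0.050). Its arrays were 1.07-fold apart at most, and only 15.2% of the genes above background had a smaller SD. BCL2 itself had signals of 5.07, 5.17 and 4.58 (4.94 ± 0.32). Its margins to background were -1.64, -1.91 and -2.25, so its level is bounded only from above and its 1.5-fold range between arrays describes signals under background. Lowering background to the 90th percentile (5.33, 5.54 and 5.61) left BCL2 below it too. A call of not above background rests on 1 feature and does not show that the transcript is absent.

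Of the effectors, BAX had signals of 7.47, 7.75 and 7.88 in replicates 1, 2 and 3 (7.70 ± 0.21, SD, n = 3). It had the largest SD of the 7 members above background, larger than that of 88.0% of all genes above background, with replicate 1 lowest and replicate 3 highest by 1.33-fold. BAK1 had signals of 7.49, 7.48 and 7.46 (7.48 ± 0.014). Its arrays were 1.02-fold apart, and just 1.21% of the genes above background had a smaller SD. The effector pair thus held both the most and the least variable of the 7 members, and the SD of the log2 difference between BAX and BAK1 over the arrays was 0.22.

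The BH3-only members fell into 3 genes above background in each array and 2 near it. BID, the member that caspase 8 cleaves to link death receptors to mitochondria, had signals of 8.26, 8.12 and 8.23 (8.20 ± 0.071, SD, n = 3). BCL2L11, which encodes BIM, had signals of 7.54, 7.52 and 7.42 (7.49 ± 0.061). BID was lowest in replicate 2 and BCL2L11 in replicate 3, with ranges of 1.10-fold and 1.08-fold. BAD, which binds BCL-XL and BCL2 when it is not phosphorylated, had signals of 7.15, 7.28 and 7.33 (7.26 ± 0.093), in the same order of arrays as BAX. Its margin over background was small, from 0.20 in replicate 2 to 0.50 in replicate 3.

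BBC3, which encodes PUMA, had signals of 6.40, 6.34 and 7.18 in replicates 1, 2 and 3 (6.64 ± 0.47, SD, n = 3). Replicate 3 stood apart from the other two, which lay below background, and it was 1.79-fold above replicate 2, the widest range of the 10 members. Of the 2055 genes within 0.5 of its mean signal, 99.4% had a smaller SD. PMAIP1, which encodes NOXA, a partner of MCL1, had signals of 6.74, 6.18 and 6.22 (6.38 ± 0.31). It was highest in replicate 1, where it passed background by only 0.036, and 94.6% of the 2083 genes of like signal had a smaller SD. Both genes are known targets of p53, and their high arrays were different ones. In replicate 1, where PMAIP1 was high, the hypoxia and glycolysis list was also high, with a mean deviation of 0.34 over 5 genes above background against 0.04 and -0.38 in replicates 2 and 3, whereas PMAIP1 had deviations of 0.36, -0.20 and -0.16. Replicate 1 was also highest for 48.1% of all genes above background, so a high value there is not particular to PMAIP1 or to this list. The part of these culture differences in the signal of PMAIP1 was not tested.

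Between replicates, the 7 members above background had a median SD of 0.071 on the log2 scale, against 0.11 over all 4528 genes above background. Of these 7 members 5 had an SD below the median of all genes, and BAX and BCL2L1 above it. None of the 10 members was 2-fold apart between any pair of arrays, the fold change that the methods used as a cut-off between cell lines. The widest range over all 4528 genes above background was 1.97-fold, so this is not particular to the members. BAX, BCL2L1, MCL1 and BAD were all lowest in replicate 1 and highest in replicate 3. Of all genes above background 26.8% had replicate 1 lowest and 27.4% had replicate 3 highest. The reverse was more common, with replicate 1 highest in 48.1% and replicate 3 lowest in 47.3%. Of the 7 named genes of the luminal marker list, which includes GRB7, 6 were lowest in replicate 1 as well. The part of this in the values of the members was not tested. Without replicate 1 the median SD of the 7 members was 0.039. This SD is over 2 arrays, so it is not directly comparable with 0.071, and the same median over all genes was not computed.

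**Figure D2:**
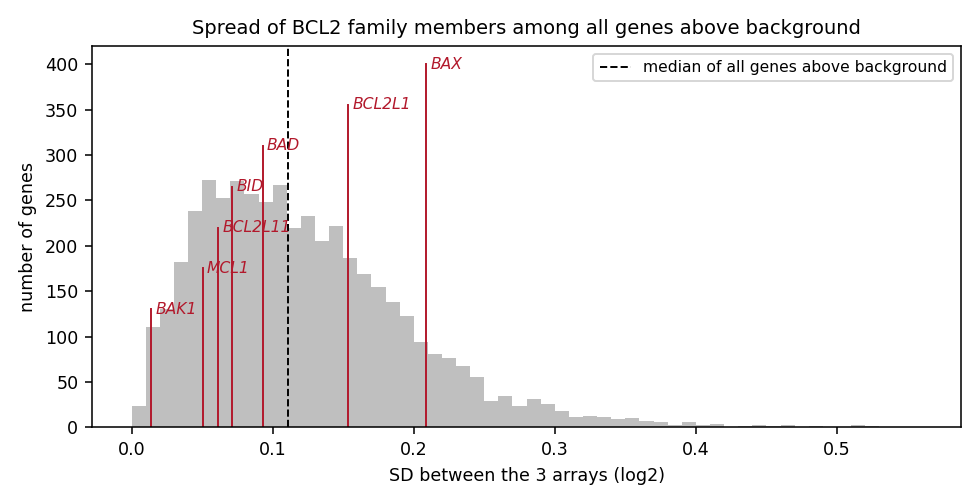
Number of genes (vertical axis) by SD between the 3 BTSH arrays on the log2 scale (horizontal axis) for the 4528 genes above background, with the 7 BCL2 family members as red lines (line heights carry no value) and the median of all genes, 0.11, as a dashed line. BAK1 lies at the low end, BAX at 0.21 is the member farthest to the right, and 5 of the 7 lie left of the median.

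Anti-apoptotic members were set against pro-apoptotic members by deviations, which are the signal of a gene in an array minus its own mean over the 3 arrays. BCL2L1 and MCL1 had a mean deviation of -0.12 in replicate 1, 0.05 in replicate 2 and 0.07 in replicate 3. The 5 pro-apoptotic members above background had mean deviations of -0.04, 0.004 and 0.04. The difference, anti-apoptotic minus pro-apoptotic, was therefore -0.07, 0.05 and 0.03 in replicates 1, 2 and 3, which corresponds to ratios of 0.951, 1.03 and 1.02. In each array the range of the pro-apoptotic members was wider than this difference (from -0.23 to 0.05 in replicate 1, from -0.08 to 0.05 in replicate 2 and from -0.07 to 0.18 in replicate 3). The anti-apoptotic and pro-apoptotic groups overlapped in all 3 arrays. In replicate 2 the deviation of BCL2L1 (0.08) lay above the pro-apoptotic range and that of MCL1 (0.02) within it.

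With the 3 members near or under background included, the difference was -0.02, 0.18 and -0.16 in replicates 1, 2 and 3. Its sign in replicate 3 thus turned with BCL2, which was lowest there (deviation -0.36), and BBC3, which was highest there (0.54). As a list, the 7 members above background had median deviations of -0.06, 0.02 and 0.04, against 0.04, -0.0007 and -0.03 over all genes above background. Each array is 1 culture, so no test of these differences could be made.

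**Figure D3:**
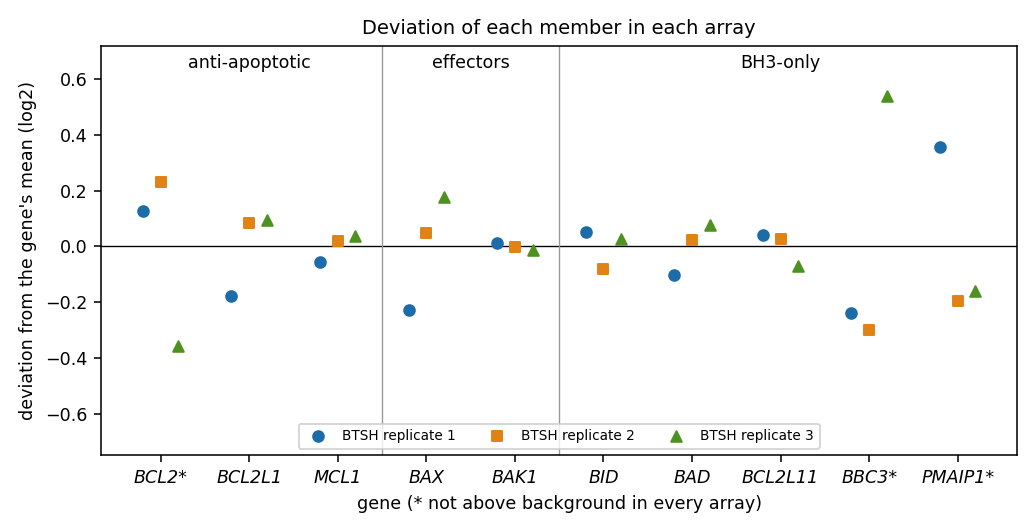
Deviation of each BCL2 family member from its own mean over the 3 BTSH arrays (vertical axis, log2), 1 point for each replicate, with genes ordered by role and asterisks on those not above background in every array. BBC3 reaches 0.54 in replicate 3 and PMAIP1 0.36 in replicate 1, while BAK1 stays within 0.014 of 0.

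Among pairs of the 7 members, BAD and MCL1 had the smallest root mean square difference between their deviations over the 3 arrays, 0.035. BAK1 and BCL2L11 followed with 0.040. This measure is also small for a pair of genes that vary little, whatever their order. BAK1 and MCL1 differed by only 0.052, although BAK1 was highest and MCL1 lowest in replicate 1. BAX and BCL2L1, which oppose each other at the mitochondrion, differed by 0.061, and the SD of their log2 ratio was 0.074, below the SD of either gene alone. The largest difference was that of BAX and BCL2L11, with 0.21. For BAX, the genes of most similar pattern among 4527 others were RABAC1, a factor of vesicle transport (9.15, 9.42 and 9.56), SELENBP1, a selenium-binding protein, FBXW5, a ubiquitin ligase subunit, the kinase CDK5 and the mitochondrial ribosomal protein MRPL41, with root mean square differences of 0.0071 to 0.014. With 3 arrays many genes share any pattern, and 446 genes lay within 0.1 of BAX.

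Of 13 further genes of the family or close to it by name, 11 had a named feature and 5 were above background in all 3 arrays. The shares above it were 30.4% of all named genes and 36.5% of the named protein-coding ones. BIK, a BH3-only protein of the endoplasmic reticulum, had signals of 7.03, 7.31 and 7.37 in replicates 1, 2 and 3, the same order as BAX and BAD. BMF, a BH3-only protein tied to the cytoskeleton, had 7.45, 7.43 and 7.13 with one feature and was above background in 0 arrays with its other feature (3.76, 3.99 and 3.95). BCL2L13, a mitophagy receptor, had 7.66, 7.45 and 7.38. BCL2L12 was above background in 2 arrays (6.90, 6.94 and 7.33). BOK, an effector-like relative of BAX, had 6.19, 6.04 and 6.33 and was below background in each. The other anti-apoptotic genes BCL2A1 (3.16 ± 0.044) and BCL2L10 (3.72 ± 0.074) and the genes BCL2L14 (4.10 ± 0.10) and BCL2L15 (3.05 ± 0.027) were far below it (SD, n = 3).

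BNIP3 and BNIP3L, mitophagy receptors induced by hypoxia, had signals of 10.13, 9.79 and 9.76 (BNIP3) and 10.48, 10.23 and 9.91 (BNIP3L). Replicate 1 was highest and replicate 3 lowest for both, by 1.29-fold and 1.49-fold, which is the reverse of the order of BAX, BCL2L1, MCL1 and BAD. All 5 genes of the hypoxia and glycolysis list above background had the same order as BNIP3, for example NDRG1 with 7.94, 7.51 and 6.97. This was also common elsewhere, with replicate 1 highest in 48.1% and replicate 3 lowest in 47.3% of all genes above background. All 5 immediate early genes above background were highest in replicate 2, with a mean deviation of 0.26. Replicate 2 was highest for 0 of the 7 members above background and for 24.4% of all genes above background, so a low count is not particular to the members. The part of these differences in the values of the BCL2 family was not tested.

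**Figure D4:**
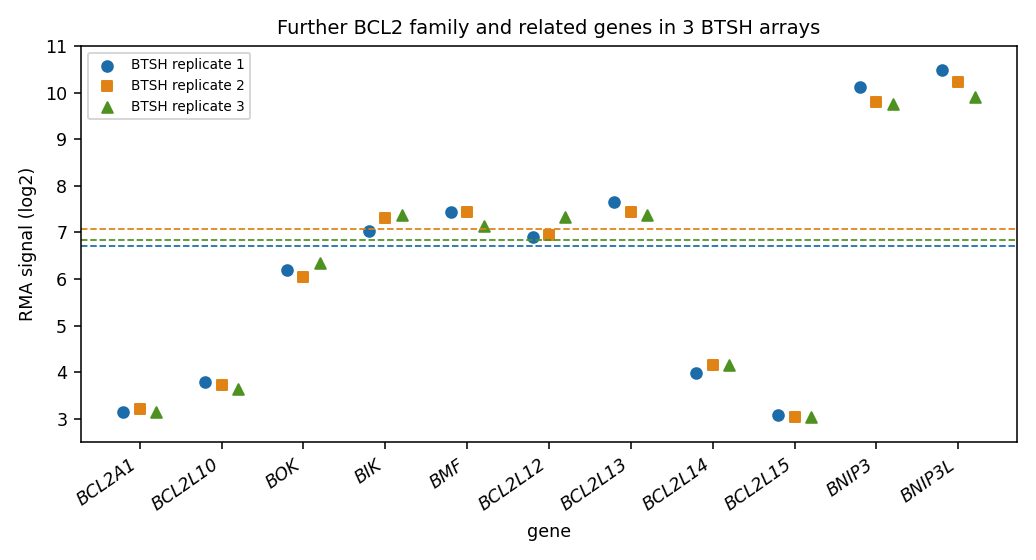
RMA signal (log2) of 11 further genes of the BCL2 family or related to it by name in the 3 BTSH arrays (circles, squares and triangles for replicates 1, 2 and 3), with the background of each array as a dashed line of the same colour. BNIP3 and BNIP3L lie far above background, and BCL2A1, BCL2L10, BCL2L14 and BCL2L15 far below.

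Downstream of the mitochondrion, 5 of 6 named genes of the apoptosome and of mitochondrial release were above background in all arrays. The share over all named genes was 30.4%. APAF1, the scaffold of the apoptosome, had signals of 8.37, 8.23 and 7.70 in replicates 1, 2 and 3, a 1.59-fold range that was the widest among all related genes above background. The nuclease ENDOG (7.56, 7.51 and 7.83), the protease HTRA2 (7.92, 7.97 and 8.03) and the outer membrane channel VDAC1 (9.72, 9.60 and 9.65) varied less. VDAC2, a channel that binds BAK1, was above background in 2 arrays (6.99, 6.98 and 6.86). Of 5 named inhibitors of apoptosis 3 passed, with BIRC5 (survivin) at 7.55, 7.54 and 8.04, BIRC2 at 7.91, 8.05 and 7.74 and BIRC6 at 9.14, 9.10 and 8.92. XIAP (6.43 ± 0.20) and BIRC7 (5.94 ± 0.092) were above it in 0 arrays. The 7 caspases listed have no named feature here. PARP1, a caspase substrate, had signals of 10.05, 10.06 and 10.08.

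Upstream of the family, FADD (7.29 ± 0.043) and TRADD (7.48 ± 0.062), adaptors of death receptors, were above background in each array (FADD with 1 of its 2 features), and CFLAR (6.54 ± 0.030), which blocks caspase 8, was not. MDM4, an inhibitor of p53, passed (8.01 ± 0.045), and the checkpoint kinase CHEK2 did not (6.10 ± 0.14). BTRC, a ubiquitin ligase subunit that targets MCL1, had signals of 8.32, 8.30 and 7.80 in replicates 1, 2 and 3. Of 6 transcription factors of BH3-only genes, ATF4 (10.56 ± 0.15), FOXO4 (7.33 ± 0.081) and E2F1 (7.24 ± 0.044) passed, and FOXO1 (5.93 ± 0.16), FOXO3 (6.61 ± 0.012) and DDIT3 (5.30 ± 0.22) were above background in 0 arrays. Along the route from HER receptors to BAD and BIM, the receptors ERBB3 (9.04 ± 0.021) and EGFR (8.87 ± 0.16) and the kinase MAPK3 (8.19 ± 0.14) passed, and AKT2 (6.28 ± 0.022) did not. Only 5 of the 11 genes listed for this route had a named feature. The same held for 2 of 6 genes of the p53 axis and 3 of 8 of the death receptor pathway, so these lists were covered in part. AKT1 was above background in 0 arrays with the feature of the higher mean and in 1 array with the other. The former had signals of 6.61, 6.72 and 6.75, close under the backgrounds of 6.70, 7.08 and 6.83. With the 90th percentile as background, AKT1, AKT2, FOXO1, FOXO3, CFLAR and CHEK2 passed in every array and DDIT3 did not. These calls thus depend on the background level and do not show that a transcript is absent. Over all these lists and the further family genes, 40 of 72 genes had a named feature and 24 were above background in all 3 arrays. The shares above it were 30.4% of all named genes and 36.5% of the protein-coding ones.

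The identity of the cells was checked by markers. All 7 named genes of the luminal marker list, such as EPCAM (10.81 ± 0.040, SD, n = 3), FOXA1 (10.16 ± 0.066) and KRT19 (11.25 ± 0.094), were above background in all arrays. GRB7 (10.77 ± 0.16) is on this list but is not specific to luminal cells. Of 6 named markers of leukocytes, fibroblasts, endothelium or basal cells, 0 were above background in any array. Over all 53617 features the arrays had medians from 4.4 to 4.43 and Pearson correlations between 0.991 and 0.992 across features, which are not independent replicates.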

How the data were processed

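The authors deposited log2 signals of 53617 features, which they obtained from 3 HuGene 2.0 ST arrays by RMA in Expression Console 1.4. Transcriptome Analysis Console 4.0 stands in the submitters' processing notes too. RMA includes quantile normalization. The sources used here do not state the genome build of the features or whether earlier arrays were processed jointly. Values were used as deposited. The 16098 features with a gene symbol in the platform annotation (0 with several) were named through RefSeq gene identifiers, and the feature of the highest mean represented each of 14884 genes. No 2 arrays shared more than 83 identical values, and each counted as 1 replicate.

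A gene was above background when it passed the 95th percentile of 106 background features in every array. SD is over 3 arrays. No significance test was made, since there is 1 group, and the number of arrays limits the precision. The members, lists and background were chosen with earlier results of these data known. Named genes were all members, all further family genes, the 2 most and the 2 least variable genes above background of each pathway list, a list's genes under background where there were at most 5, and the 5 genes closest to the most variable member. The E-box and GC box were chosen for display out of 8 motifs after their matches in the members had been seen. The calculations were tested on simulated data. Alternatives were other background levels, averaging over arrays or features, quantile normalization, median centring and leaving out replicates. Python 3.11.15, numpy 2.4.6, pandas 2.3.3 and matplotlib 3.10.9 were used.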

Additional observations from a re-analysis of the deposited data

How the results depend on the processing

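The background level decided how many members passed. With the 99th percentile 4 members passed (BAX, BID, BCL2L1 and MCL1), against 22.0% of all named genes. With the 90th 9 passed, against 50.5%, and with the median of all features all 10, against 67.5%. A stricter background admits fewer genes. The same 7 members passed with quantile normalization, which could change little because RMA already includes it, and with the mean over the arrays. Averaging features could not change them, since each member has 1 feature, nor could leaving out 1 replicate, since the other 3 members passed in at most 1 array. Of the 40 related genes with a named feature, 17 were above background with the 99th percentile and 35 with the 90th. Under the alternatives that kept the 95th, 22 to 26 were, against 29.5% to 33.4% of all named genes. With all 10 members, the anti-apoptotic minus pro-apoptotic difference was 0.18 in replicate 2 and -0.16 in replicate 3, because members near or under background entered it. Over the 7 members above background and with quantile normalization it was -0.05, 0.05 and 0.007 in replicates 1, 2 and 3. Leaving out a replicate says nothing about its sign, because deviations from the mean of 2 arrays are equal and opposite. Without replicate 1 the median SD of the members was 0.039 in place of 0.071, with a range of 0.039 to 0.089 when 1 replicate was left out. These SDs are over 2 arrays, so they are not directly comparable with 0.071, which is over 3. No paired analysis was possible because there is 1 group of samples. Depth is limited for BCL2, BBC3 and PMAIP1, which lay under background in at least 2 arrays.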
